A study of Mus musculus with 8 samples.

Results

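Ttr-expressing endoderm was examined at day 5 of differentiation of mouse embryonic stem cells, in a library of wild-type cells and a library of Tet-triple knockout (TKO) cells, here called WT-labelled and TKO-labelled. A cell was counted as such when at most 15% of its UMIs (unique molecular identifiers, each standing for 1 captured RNA molecule) were mitochondrial and it held at least 3 UMIs of Ttr, at least 1 UMI of Spink1 or S100g, at least 1 UMI of Epcam or Cldn6 and fewer than 2 UMIs of Sox17. The rule kept 224 of 7589 cells, 165 of 4392 in the WT-labelled library and 59 of 3197 in the TKO-labelled library. The cells so chosen are called members below. Because these 6 genes chose the members, their values are given only as a description.

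Both libraries came from the E14-NKX2-5-EmGFP embryonic stem cell line, which carries a green fluorescent reporter named for the cardiac gene NKX2-5. The cells had been kept on mitomycin C-treated mouse embryonic fibroblasts with leukemia inhibitory factor, then formed embryoid bodies in hanging drops and in suspension without that factor, and neither library received a treatment. The genotypes were wild type and Tet-triple knockout, and the design text names the roles of TET proteins on the way to the cardiac lineage as the question. Whether the knockout was 1 clone is not given, and with 1 library per genotype the genotype, the culture and the library cannot be told apart. No test across samples was therefore possible, and every interval printed is a 95% counting interval only.

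Visceral endoderm is the epithelium that surrounds the early mouse embryo. Like the later yolk sac, liver and gut, it secretes carrier proteins and apolipoproteins into the surrounding fluid and takes up nutrients through receptors on its apical surface. Transcription factors of the FOXA, GATA and HNF families are known regulators of this programme. TET enzymes oxidise methylated cytosine, a step on the way to losing the methyl mark. Ttr, which encodes transthyretin, the carrier of thyroid hormone and of retinol-binding protein, is made by visceral endoderm, liver and also by other epithelia, so that the gene alone does not name 1 tissue.

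The promoters of 4 genes are shown because the genes differ in how their RNA compared between the libraries. Rbp4 and Apom, secreted carriers, were far lower in the TKO-labelled members, while Foxa1, an endoderm factor, was not. Epcam, an epithelial adhesion gene, is shown as a gene of the rule. Each sequence is the 250 bases before a RefSeq start in GRCm38.p6, read 5′ to 3′ on the strand of the gene, with CG dinucleotides, the sites of most DNA methylation in mammals, in capitals.
Rbp4, chr19:38125322-38125571, minus strand: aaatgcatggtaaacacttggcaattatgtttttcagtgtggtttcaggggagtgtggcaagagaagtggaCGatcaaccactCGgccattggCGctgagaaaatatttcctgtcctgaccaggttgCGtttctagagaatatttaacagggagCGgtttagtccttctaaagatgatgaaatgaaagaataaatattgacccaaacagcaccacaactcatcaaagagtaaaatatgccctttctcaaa
Rbp4, chr19:38124812-38125061, minus strand: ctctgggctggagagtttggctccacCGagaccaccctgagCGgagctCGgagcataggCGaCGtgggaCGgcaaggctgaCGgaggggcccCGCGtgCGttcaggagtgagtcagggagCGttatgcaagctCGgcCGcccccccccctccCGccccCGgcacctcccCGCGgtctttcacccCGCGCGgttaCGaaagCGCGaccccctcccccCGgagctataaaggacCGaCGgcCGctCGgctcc
Apom, chr17:35131802-35132051, minus strand: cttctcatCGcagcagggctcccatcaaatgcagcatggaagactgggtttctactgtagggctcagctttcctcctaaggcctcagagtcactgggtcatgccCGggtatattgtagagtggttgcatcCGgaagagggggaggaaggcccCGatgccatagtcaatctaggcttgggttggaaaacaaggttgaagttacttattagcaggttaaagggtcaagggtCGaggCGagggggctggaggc
Foxa1, chr12:57546112-57546361, minus strand: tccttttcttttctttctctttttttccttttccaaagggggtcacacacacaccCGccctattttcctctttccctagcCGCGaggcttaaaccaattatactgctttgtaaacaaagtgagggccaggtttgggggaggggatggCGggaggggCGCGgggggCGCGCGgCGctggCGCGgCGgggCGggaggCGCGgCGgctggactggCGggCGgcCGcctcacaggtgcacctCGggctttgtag
Epcam, chr17:87635729-87635978, plus strand: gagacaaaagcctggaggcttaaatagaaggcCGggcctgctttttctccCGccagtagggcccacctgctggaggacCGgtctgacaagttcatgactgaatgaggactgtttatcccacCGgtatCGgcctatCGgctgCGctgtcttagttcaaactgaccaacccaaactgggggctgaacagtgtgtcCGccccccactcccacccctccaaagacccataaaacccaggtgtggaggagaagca
The first Rbp4 start had 5 CG dinucleotides in this window and Apom had 6, against a median of 17 over 7446 starts of 5802 matched genes among the 7462 tested. As few or fewer stood in 11.2% and 13.6% of those starts. The second Rbp4 start had 28 and Foxa1 had 21. Epcam had 8. Over the 9 tested genes of secreted carriers and apolipoproteins, all matched, the median was 7.5 CG dinucleotides at 12 starts, over the uptake list 11, and over the endoderm factor list 13. It was also 13 over the epithelial list. Over all 32851 starts with a sequence, of tested and untested genes, the median was 6. The counts of the first Rbp4 start and of Apom are thus low only against the tested genes. TGTTTAC, searched on both strands as a FOXA motif, was found before the first Rbp4 start and before Foxa1, and in 2.39% of the starts of tested genes. The motif AGATAA of GATA factors, found in 5.30% of those starts, and CAAAGTCCA of HNF4, found in 0.215%, were in none of the 5 windows. Methylation of these windows was not analysed here, and which Rbp4 start was used cannot be read from the counts.

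Where a pair of values is given, the WT-labelled value comes first and the TKO-labelled value second. The members held 1393090 and 637760 UMIs, with medians of 7035 and 9537 UMIs and of 2168 and 2866 genes per cell. Ribosomal protein genes took a median of 34.7% and 26.9% of a member's UMIs. Levels are given as CPM, the UMIs of a gene summed over the members of a library and scaled to a total of 1000000, and 3 UMIs, the floor used for a gene at 0, were worth 2.15 and 4.70 CPM. The headers of the libraries shared 21 barcode sequences, and 1 table named 1 barcode more than it had columns of values. The members were 3.76% (3.21 to 4.36) of the WT-labelled and 1.85% (1.41 to 2.37) of the TKO-labelled cells. After every cell was thinned to 4000 UMIs, with 373 and 190 shallower cells left out, the same rule kept 151 of 4019 (3.76%) and 36 of 3007 (1.20%).

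The label was read on Rbp4 and Apom, endoderm genes that the rule did not use. Both belong to the marker set of this label, and the members were chosen with earlier results of these data known. Their levels therefore describe the members and are no independent check of the label. Rbp4 was 90.8-fold higher in the members than in all other cells of the WT-labelled library and 10.7-fold higher in the TKO-labelled library, and Apom 81.7-fold and 22.5-fold. In either library both genes thus stood higher in the members than in its other cells. The TKO-labelled values rest on 21 UMIs of Rbp4 in 11 of 59 members and 28 UMIs of Apom in 19 of 59. The label "Ttr-expressing endoderm" is kept for both, in the sense of the rule, with much lower carrier levels on the TKO-labelled side. Alb, Trf, Ahsg and Apoh, carriers of mature liver and yolk sac, had no UMI in any member, and Afp, a classic visceral endoderm and yolk sac product, had 7 and 1 UMIs.

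Markers of other cell types were also seen in the members, at unequal levels. Blood genes summed to 0 to 1294 UMIs per WT-labelled member with a median of 2, and 0 to 1 per TKO-labelled member, with 10 and 4 of 12 genes detected. Ptprc and Spi1 were at 0 in both, and Gata1 and Hba-x at 0 in the TKO-labelled members. Of the Hbb-bh1 UMIs of the WT-labelled members, 83.7% lay in 3 cells. Endothelial genes summed to 0 to 13 and 0 to 7 UMIs per member, with 11 and 4 of 12 genes detected, Emcn at 0 in both and Cdh5 at 0 in the TKO-labelled members. Mesenchymal genes summed to 0 to 46 and 0 to 17, with 11 and 7 of 13 detected, and Col1a1, Col3a1, Postn and Lum were at 0 in the TKO-labelled members. Genes of pluripotent cells summed to 0 to 14 UMIs per WT-labelled member with a median of 1, and 0 to 43 per TKO-labelled member with a median of 2, with 6 and 8 of 12 genes detected. Members with none of them numbered 46 of 165 and 9 of 59, and Nanog, Esrrb, Utf1 and Tdgf1 were at 0 in both groups. The pluripotent genes summed to 215 and 267 CPM in the members and to 136 and 505 CPM in the other cells. Trophoblast genes summed to 0 to 20 UMIs per member in both groups, with a median of 2 in each. Cardiomyocyte genes summed to 0 to 22 and 0 to 8, and neuroectoderm genes to 0 to 3 in both, all with a median of 0. No doublet caller was run. A cell with at least 5 UMIs of globin genes, at least 5 of Col1a1, Col3a1, Postn and Lum, or over 2.5 times the median depth of its library was marked as a possible doublet, which took 25 WT-labelled members and 1 TKO-labelled member. Globin-rich cells, with at least 20 globin UMIs, numbered 593 and 19, and the part of their free RNA in these sums was not tested.

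Ttr itself ranged from 3 to 196 UMIs per WT-labelled member with a median of 52, and from 3 to 118 with a median of 7 in the TKO-labelled members. Most WT-labelled members were thus far above the threshold, and most TKO-labelled members close to it. At least 10 UMIs of Ttr were held by 154 of 165 WT-labelled and 20 of 59 TKO-labelled members. Exactly 3 UMIs were held by 4 and 7 members, while 2 WT-labelled and 14 TKO-labelled cells with 2 UMIs met the rest of the rule and stayed out. The summed level of Ttr was 6694 and 1347 CPM. Spink1, a secreted trypsin inhibitor, was at 6753 and 1902 CPM and was detected in 163 of 165 and 59 of 59 members. S100g, a cytosolic calcium-binding protein, was at 2594 and 315 CPM but was detected in 118 of 165 and only 10 of 59 members, and 91.5% of its TKO-labelled UMIs lay in 3 cells. The threshold on Sox17, a transcription factor of definitive and extraembryonic endoderm, brought the cells from 196 to 165 and from 79 to 59.

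**Figure D1:**
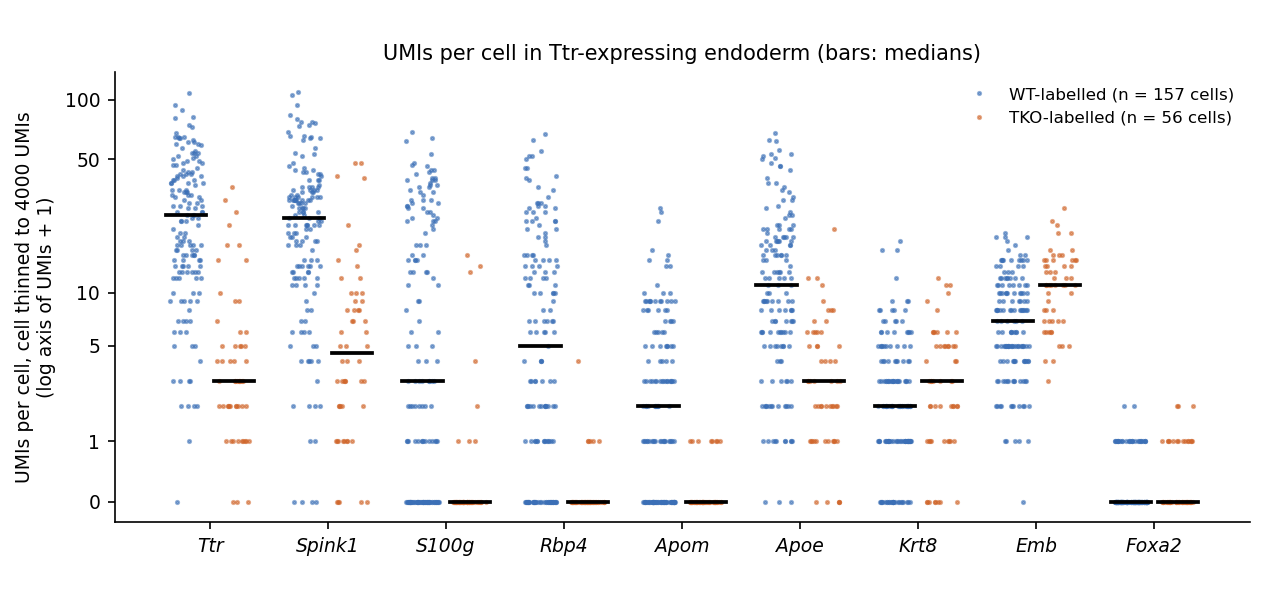
UMIs per member after thinning each cell to 4000 UMIs, on a log axis of UMIs + 1, for 9 genes in 157 WT-labelled and 56 TKO-labelled members, with bars at the medians. Ttr, Spink1, S100g, Rbp4 and Apom points reach far higher in the WT-labelled cells, while Krt8, Emb and Foxa2 points overlap along most of their range.

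Between the libraries, many secreted genes of the members lay far apart. The epithelial genes, in cells chosen by Epcam or Cldn6, lay closer together. Over both groups, 7462 genes outside the rule had at least 20 UMIs. Of them 695 (9.31%) were at least 2-fold higher in the TKO-labelled members and 456 (6.11%) at least 2-fold lower. Without regard to size, 65.7% were higher and 34.3% lower, and the median log2 ratio of TKO-labelled over WT-labelled levels was 0.25. Scaling by the median ratio instead of the total lowered every log2 ratio by 0.35, which gave 256 genes at least 2-fold higher and 797 lower. Log2 ratios between 0 and 0.35 therefore change sign with that scaling. List medians below are to be read against the median of 0.25, and the genes of a list had to have at least 20 UMIs over both groups to be counted. A gene with few UMIs in 1 group passed that minimum only through the other group, where it was high, and so had to differ. The counts and medians of the lists therefore describe the genes that passed and are no evidence about a whole list.

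The most abundant secreted carriers and apolipoproteins were lower in the TKO-labelled members. Of the 24 genes of this list outside the rule, 14 had a lower and 5 a higher level there, whatever their counts, and 5 had no UMI in either group. Of the 9 with enough UMIs, 8 were at least 2-fold lower, against 6.11% of all genes, and none was 2-fold higher. Of these 8, Apob, Apoa1, Apoa4, Fgb and Mttp had fewer than 20 UMIs in the TKO-labelled members, while Rbp4, Apom and Apoe had at least 20 in each group. The median log2 ratio was -2.60, with a range of -6.23 to 0.59. Apoa2, Ambp, Gc and Fga were seen in WT-labelled members only, at low counts. In both libraries 8 of the 9 genes were at least 2-fold higher in the members than in the other cells, against 4.32% of all genes. The 9 genes passed by their UMIs in the members, which were chosen by Ttr, itself a secreted carrier. This count is therefore a description only.

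Rbp4, which carries retinol in blood and in the fluids around the embryo, was at 2529 CPM (2446 to 2614) and 32.9 CPM (20.4 to 50.3). It was 76.8-fold lower (50.2 to 124) on the TKO-labelled side, the lowest ratio of its list. WT-labelled members held 0 to 148 UMIs with a median of 9, and TKO-labelled members 0 to 5 with a median of 0, so that the highest TKO-labelled cell lay below the WT-labelled median. Over 14 other settings the log2 ratio of Rbp4 stayed between -6.58 and -5.34. Apom, an apolipoprotein that carries sphingosine 1-phosphate, was at 886 CPM (837 to 937) and 43.9 CPM (29.2 to 63.5), or 20.2-fold lower (13.9 to 30.5). Its WT-labelled members held 0 to 58 UMIs with a median of 3, and its TKO-labelled members 0 to 4 with a median of 0. The groups overlapped for both genes because some WT-labelled members also held none.

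The lipoprotein genes differed from each other in the size of the ratio. Apob, the structural protein of secreted lipoproteins, was at 158 CPM (138 to 180.2) and 12.5 CPM (5.42 to 24.7), and 7 of its 8 TKO-labelled UMIs lay in 1 cell. Apoa1, the main protein of high-density lipoprotein, was at 93.3 CPM (78.0 to 111) and 6.27 CPM (1.71 to 16.1). Apoa4 (15.8 and 6.27 CPM) had 22 and 4 UMIs, with an interval of its 2.52-fold lower value of 0.855 to 10.1 that includes 1, and its direction turned among members with at least 10 UMIs of Ttr. Apoe, the ligand of lipoprotein receptors, was high in both groups, at 3549 CPM (3451 to 3649) and 1021 CPM (944 to 1102), or 3.48-fold lower (3.20 to 3.78). Mttp, which loads lipid onto apolipoprotein B, was at 62.5 and 29.8 CPM, or 2.10-fold lower (1.27 to 3.65). Fgb, the beta chain of fibrinogen, was at 42.4 and 6.27 CPM, from 59 and 4 UMIs. Mfge8, a secreted glycoprotein that binds exposed phosphatidylserine, was the exception, at 50.2 and 75.3 CPM, with a ratio of 1.50 (1.02 to 2.19). It was also not enriched in the WT-labelled members, at 0.873 times the level of the other cells.

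**Figure D2:**
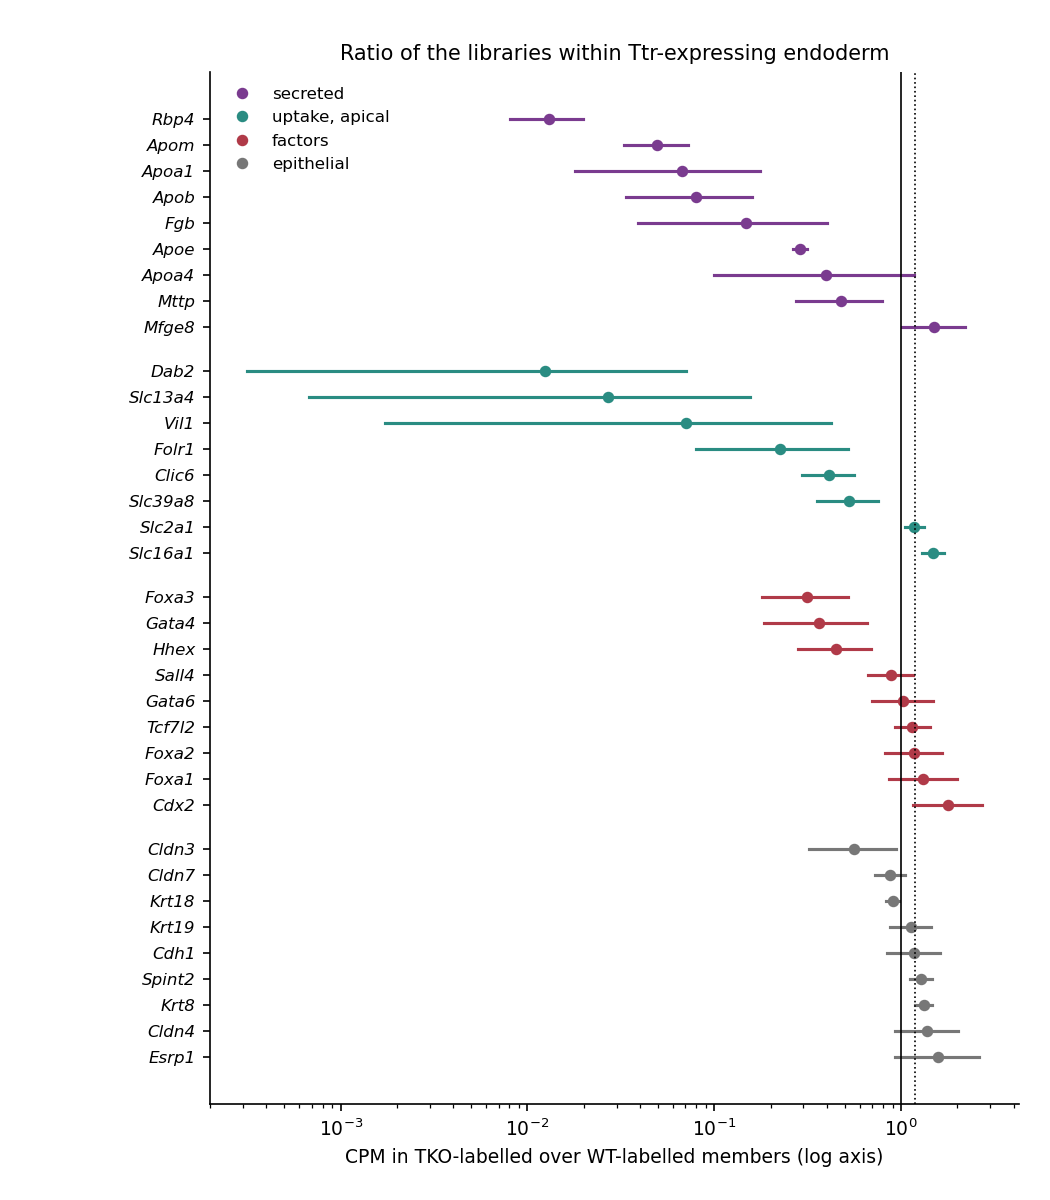
Ratio of the level (CPM) in TKO-labelled over WT-labelled members with 95% counting intervals, on a log axis, for secreted, uptake, transcription factor and epithelial genes. The solid line marks 1 and the dotted line the median of all genes tested, and the secreted genes lie left of both except Mfge8 while the epithelial genes lie around them.

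Counted by cell, fewer TKO-labelled members held several secreted genes. After thinning to 4000 UMIs, Rbp4 had a UMI in 118 of 157 (75.2%) WT-labelled and 6 of 56 (10.7%) TKO-labelled members, and before thinning in 135 of 165 and 11 of 59. Globin-rich cells, which should lack the gene, had one in 16 of 540 (2.96%) and 0 of 17 cells at the same depth. Apom had a UMI in 101 of 157 (64.3%) and 8 of 56 (14.3%) members, before thinning in 120 of 165 and 19 of 59, against 4 of 540 and 0 of 17 globin-rich cells. With 17 TKO-labelled globin-rich cells, a count of 0 allows a share of up to 17.6% (3 cells of 17), and in the 25 endothelial cells of that library, where neither gene was seen, up to 12%. These cells are too few to set a background for the TKO-labelled shares. Among all other TKO-labelled cells at the same depth, which include other endoderm, Rbp4 had a UMI in 24 of 2951 (0.813%, 0.522 to 1.21) and Apom in 14 of 2951 (0.474%, 0.260 to 0.795). The counting intervals of the TKO-labelled members were 4.03 to 21.9% for Rbp4 and 6.38 to 26.2% for Apom. Cells are not replicates and the members were chosen by Ttr, so these shares are a description of the library. Before thinning, median depths were 9462 and 10582 UMIs in globin-rich cells, above the 7035 and 9537 of the members. Apob was detected in 51 of 157 (32.5%) and 1 of 56 members. Apoe was detected in 154 of 157 (98.1%) and 51 of 56 (91.1%), but also in 116 of 131 (88.5%) of the endothelial cells of the WT-labelled library (at least 2 UMIs of Pecam1 and Cdh5, none of Epcam or Cldn6), so that its presence is not particular to endoderm. At least 3 of 24 secreted genes were found together in 120 of 157 (76.4%) WT-labelled and 12 of 56 (21.4%) TKO-labelled members. The same was found in 2 of 540 and 0 of 17 globin-rich cells and in 0 of 131 and 0 of 25 endothelial cells.

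Because the TKO-labelled members sat closer to the Ttr threshold, the genes were also compared within bands of Ttr count. The bands narrow the difference in Ttr but do not remove it: Ttr was at 7014 and 2768 CPM in the band with at least 10 UMIs and at 832 and 500.4 CPM in the band with 3 to 9. Among members with at least 10 UMIs of Ttr, 154 WT-labelled and 20 TKO-labelled cells, Rbp4 was at 2629 and 63.0 CPM, or 41.7-fold lower (25.3 to 74.6). Apom was 11.7-fold lower (7.46 to 19.5) and Apoe 2.55-fold lower (2.28 to 2.85) in the same cells. The ratios of Rbp4 and Apom were thus smaller than over all members but still large. Among members with 3 to 9 UMIs of Ttr, 11 WT-labelled and 39 TKO-labelled cells, Rbp4 had 50 and 6 UMIs, or 46.2-fold lower (19.8 to 132). Apom had 1 and 9 UMIs there, a ratio of 1.62 in the other direction (0.225 to 71.2), and Apoe had a ratio of 0.849 (0.648 to 1.13). In that band 43 of the 50 WT-labelled UMIs of Rbp4 lay in 2 cells and 5 of the 11 cells held none, so its value rests on those 2 cells. Among the 4 and 7 members with exactly 3 UMIs of Ttr, Rbp4 had 1 and 2 UMIs, too few to compare. For Apom and Apoe the intervals of the low band include 1. Among members with a UMI of S100g, 118 and 10 cells, Rbp4 was at 3035 and 29.1 CPM, or 104-fold lower (35.7 to 506). The TKO-labelled value came from only 3 UMIs, so the size of this ratio is uncertain. Apom was 11.7-fold lower (6.12 to 25.6), from 1056 and 9 UMIs. In those cells the ratio of TKO-labelled over WT-labelled levels was 0.903 for Ctsh, 1.08 for Clic6 and 1.11 for Car4, but 0.527 for Apoe, 0.615 for Meg3, 0.173 for Lgals2 and 0.164 for Mest. On the TKO-labelled side Lgals2 had 4 UMIs there and Mest 6. Among the 47 and 49 members without S100g the ratio was 0.361 for Ctsh, 0.252 for Clic6, 0.959 for Car4 and 0.325 for Apoe. Ttr itself stood at 0.468 and 0.211 with and without S100g.

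**Figure D3:**
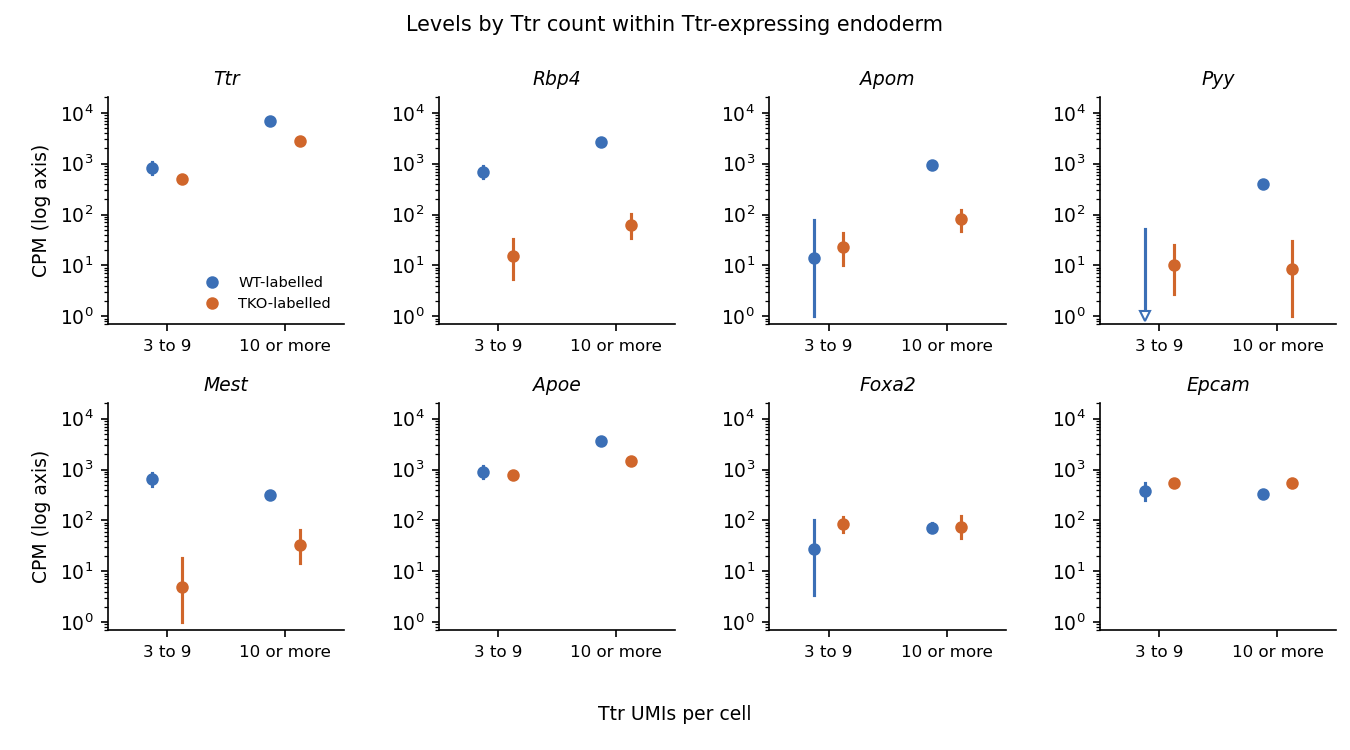
Level in CPM on a log axis of 8 genes in members with 3 to 9 and with at least 10 UMIs of Ttr, for both libraries, with 95% counting intervals. Rbp4 and Mest lie lower in the TKO-labelled members in both bands, and Apom and Pyy in the band with at least 10 UMIs.

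Lysosomal proteases and protease inhibitors were moderately lower. Of 14 genes, 4 were at least 2-fold lower (6.11% of all genes) and none 2-fold higher (9.31%), with a median log2 ratio of -0.47. Ctsh, a lysosomal aminopeptidase that was 46.1-fold and 5.81-fold above the other cells, was at 998 CPM (947 to 1052) and 321 CPM (279 to 369), or 3.11-fold lower (2.68 to 3.61). It had a UMI in 133 of 157 (84.7%) and 24 of 56 (42.9%) members after thinning. Lgmn, an asparaginyl endopeptidase of lysosomes, was 3.39-fold lower (2.49 to 4.70), and Ctsl, a cysteine protease, 2.04-fold lower (1.78 to 2.35). Timp3, an inhibitor of metalloproteases, was at 33.0 and 15.7 CPM, and its direction turned when the rule was applied to thinned cells. Cst3, a secreted inhibitor of cysteine proteases, was at 932 and 566 CPM, while Ctsz (240.5 and 212) and Ctsb (89.7 and 69.0) differed less.

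Uptake receptors and genes of the apical membrane differed in both size and direction. Of 20 genes outside the rule, 11 had a lower and 6 a higher level in the TKO-labelled members, whatever their counts, and 3 had no UMI. Of the 14 with enough UMIs, 7 were at least 2-fold lower, against 6.11% of all genes, and none 2-fold higher. Of these 7, 6 had fewer than 20 UMIs in the TKO-labelled members, and 5 of them at most 3. When the rule was applied to thinned cells, 1 of 11 was 2-fold lower and 1 higher. The median log2 ratio of the 14 genes was -1.10. It was -0.39 among members with at least 10 UMIs of Ttr and -0.30 with 3 to 9 UMIs, and it turned to 0.16 when the rule was applied to thinned cells, so that the direction of the list rests on how members are chosen. Dab2, a clathrin adaptor of endocytic receptors, was at 126 CPM (108 to 146) and 1.57 CPM (0.0397 to 8.74), from 175 and 1 UMIs, or 80.1-fold lower (14.2 to 3182). After thinning it was found in 42 of 157 (26.8%) WT-labelled members and in 48 of 131 (36.6%) endothelial cells of that library, so it also stood in cells outside the endoderm. Slc13a4, a sulfate transporter, had 81 and 1 UMIs, or 37.1-fold lower (6.47 to 1483). Vil1, which bundles actin in microvilli, had 31 and 1, or 14.2-fold lower (2.37 to 578). Amn, the partner of cubilin, had 39 UMIs and none, at least 5.95-fold lower, but 29 of the 39 lay in 1 cell. Folr1, a folate receptor, was at 41.6 and 9.41 CPM, or 4.43-fold lower (1.91 to 12.6), and its direction turned with thinning and among members with 3 to 9 UMIs of Ttr. Pdzk1ip1 had 19 UMIs and 1. Clic6, of the intracellular chloride channel family, was at 180.2 and 73.7 CPM, or 2.44-fold lower (1.78 to 3.41), and Slc39a8, a zinc and manganese transporter, at 111 and 58.0. Transporters of common fuels were not lower: Slc2a1, for glucose, was at 597 and 702 CPM and Slc16a1, for lactate and pyruvate, at 379.7 and 561. Cubn and Lrp2, which encode the large uptake receptors cubilin and megalin, had 9 and 8 UMIs in WT-labelled and 0 and 1 in TKO-labelled members, too few to compare.

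Endoderm transcription factors differed among themselves. Of 13 factor genes, 4 were at least 2-fold lower in the TKO-labelled members, against 6.11% of all genes, and none 2-fold higher, against 9.31%. Of these 4, Foxa3, Gata4 and Hnf4a had fewer than 20 UMIs there. When the rule was applied to thinned cells, Foxa2 was 2-fold higher, and 3 of 9 genes were lower. Of all 27 factor genes outside the rule, 10 had a lower and 12 a higher level, whatever their counts. The median log2 ratio was 0.16, which turned to -0.19 with median-ratio scaling. Foxa2, a forkhead factor that opens chromatin in endoderm, was at 69.6 CPM (56.5 to 84.9) and 81.5 CPM (60.9 to 107), with a ratio of 1.17 (0.820 to 1.66). Foxa1, its paralogue, was at 46.7 CPM (36.0 to 59.5) and 61.2 CPM (43.5 to 83.6). For both genes the intervals of the libraries overlapped, and the ratio of Foxa1 was 1.31 (0.858 to 1.98). Foxa3, the third forkhead gene of this family, was at 89.7 CPM (74.7 to 107) and 28.2 CPM (16.7 to 44.6), or 3.18-fold lower (1.93 to 5.54). Hnf4a, a nuclear receptor that drives secreted liver and visceral endoderm genes, had 25 UMIs in WT-labelled members, at 17.9 CPM, and none in TKO-labelled members, which is at least 3.82-fold lower. Gata4, a zinc finger factor of visceral endoderm, was at 56.0 and 20.4 CPM, or 2.75-fold lower (1.52 to 5.39), while its relative Gata6 was at 68.9 and 70.6. Hhex, a homeobox factor of anterior endoderm and liver, was 2.23-fold lower (1.44 to 3.59). Tcf7l2, a Wnt effector (182 and 209 CPM), and Sall4 (133 and 118) differed little. Cdx2, a homeobox factor of hindgut and trophoblast, was at 38.0 CPM (28.5 to 49.8) and 67.4 CPM (48.8 to 90.8), with a ratio of 1.77 (1.16 to 2.70).

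Counted by cell, at least 1 UMI of Foxa1, Foxa2 or Foxa3 was found in 85 of 157 (54.1%) WT-labelled and 26 of 56 (46.4%) TKO-labelled members at 4000 UMIs, against 3 of 540 and 0 of 17 globin-rich cells. The same was found in 16 of 35 and 113 of 215 Sox17-positive and in 0 of 8 and 153 of 484 Trh-positive epithelial cells, both described below. The share is thus not particular to the members. Foxa3 was found in 52 of 157 (33.1%) and 4 of 56 (7.14%) members. Foxa2 was found in 29 of 157 (18.5%) and 17 of 56 (30.4%), and its shares lay closer together before thinning. Before thinning, Foxa2 was found in 69 of 165 and 28 of 59 and Foxa3 in 90 of 165 and 15 of 59. Among members with at least 10 UMIs of Ttr, Foxa2 had a ratio of 1.05 (0.598 to 1.75).

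Epithelial genes lay closer together, in cells that the rule had chosen by Epcam or Cldn6 in both libraries. Of 15 genes for junctions and keratins outside the rule, none was 2-fold apart in either direction, against 15.4% of all genes. With so few genes, this count does not set the list apart from all genes. This count did not hold under every setting: Cldn3 was 2-fold lower without possible doublets (log2 ratio -1.29), with median-ratio scaling (-1.15), with no Sox17 (-1.10) and as a mean over cells (-1.16). Esrp1 was 2-fold higher with at least 5 UMIs of Ttr (1.07), St14 with at least 10 (1.06), and St14 (2.20) and Spint1 (1.05) with the rule on thinned cells. With a minimum of 10 UMIs, Cldn9 also counted as 2-fold lower and Grhl2 as higher. As first counted, log2 ratios ran from -0.81 to 0.76 with a median of 0.22, or -0.13 with median-ratio scaling. Krt8 and Krt18, the keratin pair of simple epithelia, were at 688 and 908 CPM and at 1407 and 1267 CPM. Cdh1, the epithelial cadherin, was at 79.0 and 92.5, and Cldn7, a claudin, at 286 and 249. Cldn3, another claudin, was at 53.1 and 29.8, the lowest ratio of the list, and St14, a membrane serine protease, at 22.3 and 37.6, the highest. Of the rule's own epithelial genes, Epcam was at 332 and 555 CPM and Cldn6 at 521 and 820.1. In both libraries 10 of the 15 genes were at least 2-fold above the other cells, against 4.32% of all genes. Since Epcam or Cldn6 chose the members, this is a description only.

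**Figure D4:**
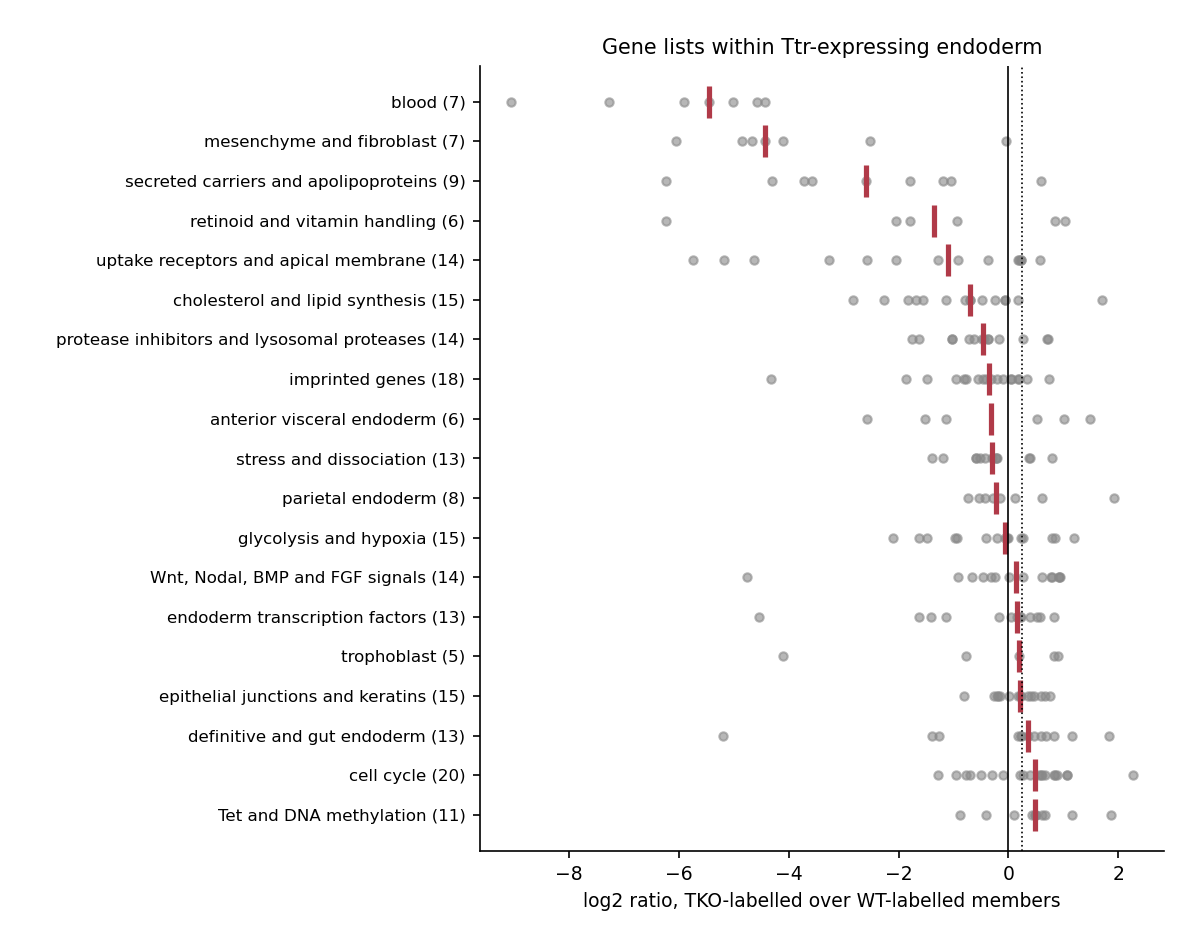
Log2 ratio of TKO-labelled over WT-labelled members for each gene with at least 20 UMIs in 19 lists, with the median of each list as a red bar and the number of genes in brackets. The dotted line is the median of all 7462 genes (0.25). The blood (-5.45), mesenchymal (-4.43) and secreted (-2.60) lists lie furthest below it, while the epithelial and endoderm factor lists lie close to it.

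Genes of definitive and gut endoderm differed both ways. Of 13 genes, 3 were at least 2-fold lower (6.11% of all genes) and 2 higher (9.31%), with a median log2 ratio of 0.35. Pyy, a gut peptide hormone, was at 372 CPM (340.5 to 405) and 9.41 CPM (3.45 to 20.5), or 39.5-fold lower (18.0 to 108), from 518 and 6 UMIs. It was found in 53 of 165 WT-labelled members, with up to 57 UMIs in a cell, and in 6 of 59 TKO-labelled members with 1 each. Among members with 3 to 9 UMIs of Ttr it had 0 and 4 UMIs, so the lower level was seen among cells with more Ttr. Tmprss2, a membrane serine protease, was at 146 and 54.9 CPM, or 2.66-fold lower (1.85 to 3.92). Rfx6, a factor of gut and pancreatic endocrine cells, had 23 and 4 UMIs. Ihh, a hedgehog ligand of visceral and gut endoderm, was higher at 42.4 and 94.1 CPM, with a ratio of 2.22 (1.52 to 3.24), and fell short of 2-fold with median-ratio scaling. Trh, which encodes thyrotropin-releasing hormone, was at 69.6 CPM (56.5 to 84.9) and 248 CPM (211 to 289.5). It was unevenly spread, with at least 3 UMIs in 9 of 165 and 15 of 59 members, and among members with 3 to 9 UMIs of Ttr its ratio was 0.894 (0.568 to 1.47). Cpm, a membrane carboxypeptidase, was high in both at 436 and 655 CPM. Nepn was at 18.7 and 29.8, with 16 of its 19 TKO-labelled UMIs in 1 cell.

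Markers of other kinds of endoderm were sparse. Of 6 genes in the anterior visceral endoderm list, Hhex, Dkk1 and Sfrp1 were at least 2-fold lower (6.11% of all genes). Lhx1 and Shisa2 were higher (9.31% of all genes), with Shisa2 short of 2-fold under median-ratio scaling. Dkk1, a Wnt antagonist, had 34 and 5 UMIs, and Sfrp1, another, 32 and 2. Lhx1, a homeobox factor, had 14 and 18 UMIs and Shisa2 12 and 11, and both turned direction among members with 3 to 9 UMIs of Ttr. Cer1 had 9 and 0 UMIs and Otx2 7 and 11. Of 8 parietal endoderm genes, none was 2-fold lower (6.11% of all genes) and Plat was higher (9.31%). Plat, which encodes tissue plasminogen activator, was at 16.5 and 62.7 CPM. Basement membrane genes differed in both directions by less than 2-fold, with Col4a1 at 95.5 and 103 and Lamb1 at 68.2 and 50.2. The log2 ratio was 0.61 for Lamc1 and -0.54 for Lamb2. No Hox gene of 25 reached 20 UMIs.

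Of 14 genes for Wnt, Nodal, BMP and FGF signals, only Bmp4 was 2-fold apart, a share no higher than the 15.4% of all genes. It had 29 UMIs in WT-labelled members and none in TKO-labelled members, which is at least 4.43-fold lower. It thus passed the minimum only through the WT-labelled group. Bmp4 is a ligand that mesoderm also makes, and it was lower in the WT-labelled members than in the other cells, at 0.152 times their level. Id1 and Id3, targets of BMP signals, were high in both, at 799 and 1379.8 CPM and at 866 and 1479 CPM. The median log2 ratio of the list was 0.14, or -0.21 with median-ratio scaling.

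The members were then set against the endoderm-like cells nearest to them by rule. Sox17-positive epithelial cells, with at least 2 UMIs of Sox17 and at least 1 of Epcam or Cldn6, numbered 35 and 218. Trh-positive epithelial cells, with at least 3 UMIs of Trh, at least 1 of Epcam or Cldn6 and fewer than 2 of Sox17, members left out, numbered 8 and 507. In the WT-labelled library the Sox17-positive cells resembled the members, with Ttr at 5902 CPM, Rbp4 at 1499 and Apom at 856. The members were 1.69-fold higher in Rbp4 and 2.81-fold higher in Pyy. In the TKO-labelled library the Sox17-positive cells held little of these, with Ttr at 135 CPM, Rbp4 at 6.60 and Apom at 13.2. The members there were 4.99-fold higher in Rbp4, 3.32-fold in Apom, 4.97-fold in Cdx2 and 3.42-fold in Ihh. Trh and Otx2, an anterior homeobox gene, were lower in the members, at 0.105 and 0.0706 times the level of the Sox17-positive cells. Against Trh-positive cells of the same library, the members were 10.7-fold higher in Rbp4, 25.8-fold in Apom, 44.0-fold in Cdx2 and 4.81-fold in Krt19, a keratin, and were lower in Hhex at 0.523 times. Foxa2 did not follow the carriers, at 84.6 and 97.6 CPM in the Sox17-positive cells of the libraries. At least 3 secreted genes were found together in 26 of 35 WT-labelled and 6 of 215 TKO-labelled Sox17-positive cells at 4000 UMIs, and in 5 of 484 TKO-labelled Trh-positive cells. These cells were chosen by expression too, so the values are a description.

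**Figure D5:**
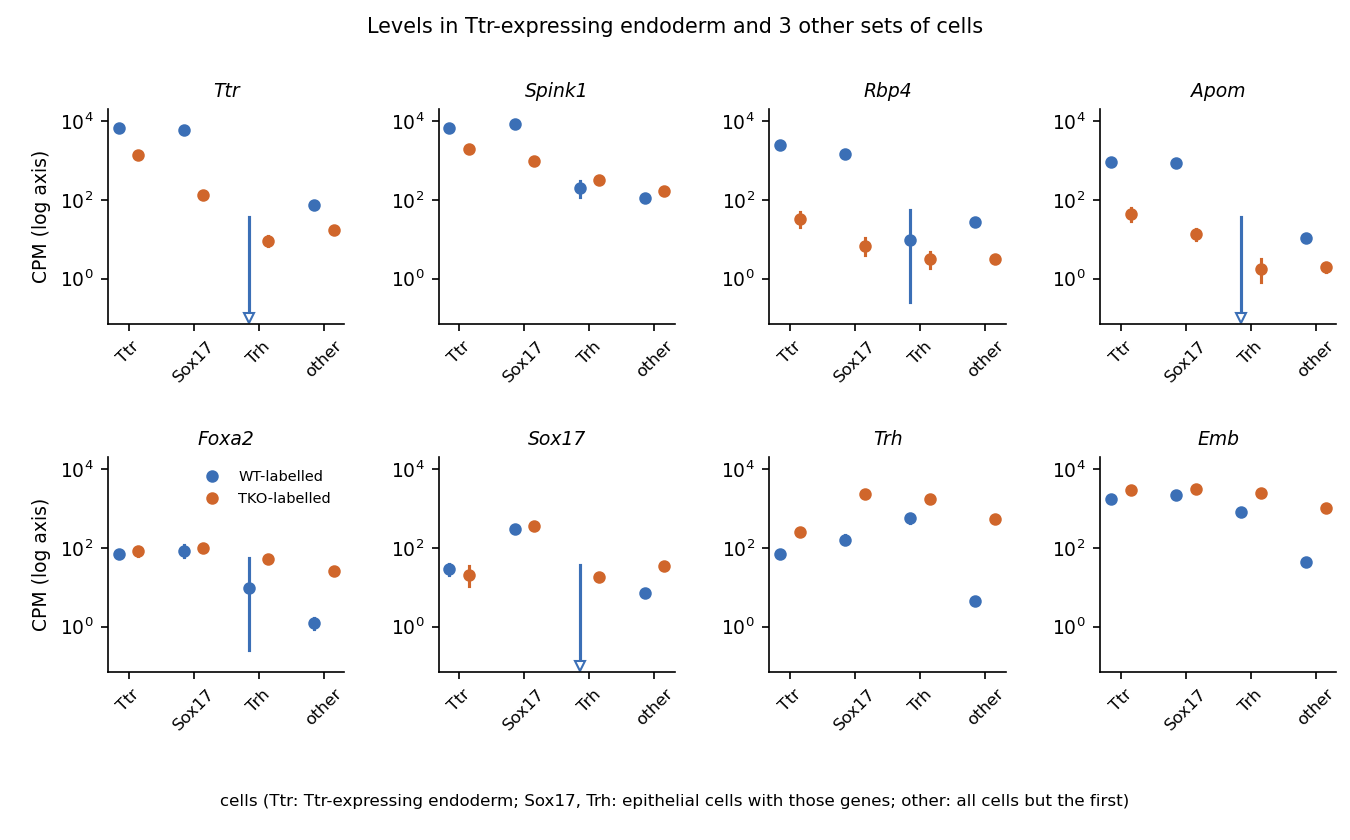
Level in CPM on a log axis of 8 genes in members, Sox17-positive epithelial cells, Trh-positive epithelial cells and all other cells of each library, with 95% counting intervals and arrows from the upper limit where no UMI was seen. Rbp4 and Apom are high in WT-labelled members and Sox17-positive cells and low in every TKO-labelled kind, where the members stand highest.

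Over all genes, 830 of 7462 (11.1%) were at least 2-fold higher in the WT-labelled members than in the other WT-labelled cells and 475 (6.37%) in the TKO-labelled members than in theirs. Both lists shared 322 genes (4.32% of those tested), which is 38.8% of the WT-labelled and 67.8% of the TKO-labelled list. At least 2-fold lower than the other cells were 456 genes (6.11%) and 199 genes (2.67%). Outside the rule, the genes most enriched in WT-labelled members with at least 100 CPM were Pyy (116-fold), Rbp4 (90.8), Apom (81.7), Tmprss2 (65.8), Clic6 (65.8) and Lgals2, a galectin (64.5). In the TKO-labelled members they were Rnase4, a secreted ribonuclease (13.1-fold), Cpn1, a plasma carboxypeptidase (12.3), Pcbd1, a cofactor of HNF1 (10.6), Car4, a membrane carbonic anhydrase (7.50), Ctsh (5.81) and Apela, a peptide hormone (5.56). The genes that led the TKO-labelled members were present in the WT-labelled members too. Cpn1 was at 85.4 and 107 CPM, Pcbd1 was at 307 and 212 CPM and Rnase4 was at 230.4 and 139.6 CPM. Apela was at 365 and 751 CPM, with a ratio of 2.06 (1.81 to 2.34). Emb, an immunoglobulin-family membrane protein, was at 1740.0 and 2919.6 CPM and was found in 156 of 157 and 56 of 56 members at 4000 UMIs.

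Genes tied to methylation were also counted, since TET enzymes act on it. Within the members Tet1 had 27 and 9 UMIs, Tet2 5 and 5 and Tet3 42 and 10, or 19.4 and 14.1, 3.59 and 7.84, and 30.1 and 15.7 CPM. Transcripts can remain after a deletion that ends the protein, and the deleted parts are not given, so these counts do not check the label. Of 11 methylation genes none was 2-fold lower (6.11% of all genes), and Uhrf1 and Gadd45a were 2-fold higher (9.31%). Uhrf1, which guides the maintenance methyltransferase, was at 27.3 and 61.2 CPM and Gadd45a at 7.18 and 26.7. Uhrf1 fell short of 2-fold with median-ratio scaling. Dnmt3b, a de novo methyltransferase, was at 125 and 176 CPM. Of 18 germline genes known to be silenced by methylation, 13 had no UMI in any member. Fmr1nb, another of the 18, was higher at 23.7 CPM (16.3 to 33.3) and 116 CPM (91.1 to 146), with a ratio of 4.90 (3.21 to 7.62), and Rhox5 was at 16.5 and 7.84. The 18 genes summed to 43.8 and 136 CPM in the members and to 29.3 and 91.2 CPM in the other cells, so the libraries differed outside the members too.

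Of 18 imprinted genes, 3 were at least 2-fold lower (6.11% of all genes) and none higher (9.31%), with a median log2 ratio of -0.36. Mest, expressed from the paternal allele, was at 328 CPM (299 to 359.5) and 15.7 CPM (7.52 to 28.8), or 20.9-fold lower (11.3 to 43.9). It was lower in both Ttr bands, with 47 and 2 UMIs among members with 3 to 9 UMIs of Ttr and 9.24-fold among those with at least 10. The WT-labelled members held less Mest than the other WT-labelled cells, at 0.365 times their level, and the other cells themselves differed between the libraries, with 7.60-fold less on the TKO-labelled side. Dlk1, also paternal, was at 179 and 48.6 CPM, and Meg3, a maternal noncoding RNA of the same cluster, at 4954 and 1769, or 2.80-fold lower (2.63 to 2.99). Cdkn1c, a maternally expressed inhibitor of the cell cycle, was at 992 and 513. Peg3 (841 and 786), Grb10 (179 and 201) and Snrpn (96.9 and 83.1) were close to level. The whole imprinted list summed to 9333 and 5246 CPM in the members and to 10305 and 4894 CPM in the other cells, so the libraries differed outside the members too.

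Genes for lipid synthesis were mostly at lower levels. Of 20 genes, 15 had a lower and 3 a higher level, whatever their counts. Of 15 genes for cholesterol and lipid synthesis, 6 were at least 2-fold lower (6.11% of all genes) and Fabp5 higher (9.31%), with a median log2 ratio of -0.70, but none was at least 2-fold above the other cells in both libraries. Scd1, a fatty acid desaturase, was at 38.8 and 4.70 CPM, Insig1, a sensor of sterols, at 63.9 and 12.5, and Hmgcs1, an early enzyme of cholesterol synthesis, at 75.4 and 25.1. All 6 had fewer than 20 UMIs in the TKO-labelled members. Fabp5, a carrier of fatty acids, was higher at 89.7 and 293, with a ratio of 3.27 (2.59 to 4.13). Of 6 retinoid and vitamin genes, Rbp4, Folr1 and Rdh11 were 2-fold lower (6.11% of all genes) and 1 gene not named here was higher (9.31%). Of the 3 lower genes, 2 had fewer than 20 UMIs in the TKO-labelled members.

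Proliferation and energy genes differed in both directions. Of 20 cell cycle genes, Ccnd1, Mcm3 and Mcm5 were at least 2-fold higher (9.31% of all genes) and Cdkn1a lower (6.11%), shares near those of all genes, with a median log2 ratio of 0.48, and of these 3 higher genes Mcm3 and Mcm5 fell short of 2-fold with median-ratio scaling. Cdkn1a, a cell cycle inhibitor, was at 169 and 69.0 CPM, while Mki67, a marker of cycling cells, was at 43.1 and 29.8, and Top2a at 107 and 129. Of 15 glycolysis and hypoxia genes, Eno1 was 2-fold higher (9.31% of all genes) at 126 and 287 CPM, but not with median-ratio scaling. Pgk1 (16.5 and 3.14), Vegfa (16.5 and 4.70) and Pdk1 (15.1 and 4.70) were 2-fold lower (6.11% of all genes). Each of these 3 had at most 3 UMIs in the TKO-labelled members and passed the minimum through the WT-labelled group. The median log2 ratio of the list was -0.07. Stress and dissociation genes had a median of -0.30, with Fos at 468 and 403 CPM. Of 13, Ddit3 and Ier3 were 2-fold lower (6.11% of all genes), both with fewer than 20 UMIs in the TKO-labelled members. Reads of Eno1 and Pgk1 can be split with near-identical copies in the genome, so their values are uncertain.

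Of genes that reached 100 CPM in either group of members, the lowest ratios outside the lists above were those of Ccl2, a chemokine, with 187 UMIs and 0 (at least 28.5-fold lower), Nupr1, a stress-induced chromatin protein, at 145 and 3.14 CPM, S100a6, a calcium-binding protein, at 134 and 3.14, and Lgals2, at 191 and 6.27. Ccl2 and Lgals2 were 57.1-fold and 64.5-fold higher in the WT-labelled members than in the other cells of that library. Globin genes also stood at this end: of 7 blood genes all 7 were 2-fold lower, each with at most 3 UMIs in the TKO-labelled members, with a median log2 ratio of -5.45, or -4.58 with genes at 0 set to their bound, and their copies are too alike to be told apart with certainty. Of 7 mesenchymal genes, 6 were 2-fold lower, 5 of them with at most 3 UMIs in the TKO-labelled members. The median log2 ratio of that list was -4.43, or -2.52 with genes at 0 set to their bound. In the cells outside the members the whole mesenchymal list summed to 3473 and 408 CPM. Among all genes, 6.11% were 2-fold lower. The blood, endothelial and mesenchymal sums given above were also lower on the TKO-labelled side, and their part in these ratios was not tested. Without the possible doublets, the log2 ratios of Rbp4, Apom and Apoe were -6.26, -4.57 and -1.89, and that of Hbb-bh1 -4.33 in place of -7.27.

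At the other end stood Ldhb, a lactate dehydrogenase subunit, at 17.2 and 155 CPM, with a ratio of 9.01 (5.72 to 14.7). Fzd2, a Wnt receptor, was at 27.3 and 146 CPM, Sox11, a factor of progenitor cells, at 76.8 and 276, and H2afy2, a histone variant, at 39.5 and 158. Mdk, a secreted heparin-binding growth factor, was high in both, at 587 CPM (548 to 629) and 2046 CPM (1937 to 2160.3), with a ratio of 3.48 (3.19 to 3.81). Ldhb differed as well in the cells outside the members, with a ratio of 2.41, and Mdk with 1.95. For Rbp4 and Apom the other cells were at ratios of 0.110 and 0.180, and free RNA was not corrected for.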

How the data were processed

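The deposited values are raw counts, whole numbers for each gene in each cell, read here as UMIs. The submitters' processing notes list Seurat 3 and mm10, with no role stated. Aligner, counting tool and filters: not given in the sources used here. Each table had 27998 gene rows, matched by position because 116 names ended in -1 in 1 table and -2 in the other, and cells were read by position. The mitochondrial limit removed 3 and 26 cells. The other 6 samples, of 8, were not analysed here.

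Members' counts were summed per library and given as CPM, with exact Poisson intervals and exact binomial intervals for ratios. Shares have Clopper-Pearson intervals. A gene counted as apart at 2-fold in the log2 ratio with a prior count of 0.5 and at least 20 UMIs over both groups, the 6 rule genes left out. A gene at 0 was set to a floor of 3 counts per group for bounds, and a share of 0 cells to a limit of 3 cells. The members and the 26 gene lists were chosen with earlier results of these data known. Genes were named by list (up to 4 at each end of the ratio and the 4 with most CPM) and, from 100 CPM, the 12 at each end and the 12 most above the other cells of each library, without ribosomal, mitochondrial, Gm and Rik genes. Genes with fewer than 20 UMIs that are named with their counts were chosen after their values were seen, and some genes the rule takes are not reported here by name. The ratios were tested on simulated data with Python 3.11.15, numpy 2.4.6, scipy 1.17.1 and pandas 2.3.3. Alternatives changed the rule, thinning, scaling, minimum and prior.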

Additional observations from a re-analysis of the deposited data

Results flagged for a closer look

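Trh, Dkk1 and Shisa2 stood above the other cells in the WT-labelled members and below them in the TKO-labelled members. The log2 ratio of members over other cells of the same library was 3.96 and -1.10 for Trh, 1.52 and -2.31 for Dkk1, and 1.68 and -1.23 for Shisa2. The opposite directions drew attention to them, and the difference between the libraries was not tested, since each had 1 library. The members held 34 and 5 UMIs of Dkk1 and 12 and 11 of Shisa2. The other cells differed too: Trh was at 4.48 CPM in other WT-labelled and 534 CPM in other TKO-labelled cells.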

How the results depend on the processing

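No paired analysis was possible because each genotype had 1 library and the labels carry no replicate numbers. Of 89 named genes that were 2-fold apart, 73 kept their direction under every alternative that gave them a value, out of 16 tried, and 16 turned somewhere. The alternative of members with 3 to 9 UMIs of Ttr, and the endothelial cells as a background, were added after seeing the data. The share of members was 1.28% and 0.626% of TKO-labelled cells with at least 5 and 10 UMIs of Ttr and 1.20% after thinning, and 2.85% of WT-labelled cells with no Sox17 and 3.19% without possible doublets. Genes 2-fold higher and lower in TKO-labelled members numbered 388 and 271 with the rule on thinned cells, 1044 and 706 with a minimum of 10 UMIs, 289 and 217 with 50, and 256 and 797 with median-ratio scaling. The higher count was 407 with the total taken without ribosomal, mitochondrial and rule genes, and the lower count 159 with 3 to 9 UMIs of Ttr. Genes 2-fold over the other cells numbered 543 in WT-labelled members on thinned cells, 461 with a minimum of 50 UMIs and 345 with 3 to 9 UMIs of Ttr, and in TKO-labelled members 757 with a minimum of 10, 239 with 50 and 157 with 3 to 9 UMIs of Ttr. A higher minimum tests fewer genes and a lower one more, and the cause of the other shifts was not tested. The uptake median was -0.39 with at least 10 and -0.30 with 3 to 9 UMIs of Ttr and turned to 0.16 on thinned cells, and the secreted median was -0.24 with 3 to 9 UMIs of Ttr, over 3 genes. Single values that turned were, on thinned cells, the retinoid median (0.43), Amn (1.71), Folr1 (0.43), Klf4 (0.082) and Timp3 (0.19), with at least 10 UMIs of Ttr Apoa4 (0.22), and without possible doublets Hbb-bs (0.026). With 3 to 9 UMIs of Ttr, Apom (0.19), Fgb (0.34), Folr1 (0.34), Ier3 (0.70), Pyy (0.70), Rfx6 (0.34) and Tagln (0.70) turned higher and Ccnd1 (-0.038), Lhx1 (-1.19), Shisa2 (-0.36) and Trh (-0.19) lower, all log2 ratios. Genes with few UMIs, such as Apoa1, Apoa4, Fgb and Hnf4a in TKO-labelled members, are limited by depth, as 3 UMIs there were worth 4.70 CPM.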
